A study of Homo sapiens with 18 samples.

Results

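Elongin B and Elongin C are the small partners of a heterodimer, and here loss of the one was set against loss of the other in PC3 cells, an established line from a human prostate carcinoma metastasis. The comparison took the 3 libraries of EloB KD cells, in which a short hairpin RNA delivered by lentivirus lowers Elongin B, and the 3 libraries of EloC KD cells, in which another lowers Elongin C. They are 6 of the 18 libraries of the series. The 3 libraries of Control KD cells, with a control hairpin in the same kind of vector, are set beside them for many of the genes, but not for all. All 9 were grown in RPMI with 10% serum, and the labels add no further allele or agent. They give neither the hairpin sequences nor how many hairpins or clones stood behind a group, so a hairpin and the loss of its target cannot be told apart. The labels do not say whether replicates 1 to 3 were separate cultures, and p-values therefore measure the spread between these samples, which may be technical. Of 20365 genes in the deposited table, the 13764 with a mean normalised count of at least 10 over the 9 libraries were compared, and 6601 fell under that mean. OSTN, at a mean of 10.0, was the last gene inside and TMEM220, at 9.99, the first outside.

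In the cell, Elongin B and Elongin C fold together into 1 adaptor. Elongin C makes the contacts with the BC-box, a short helix found in many proteins, and Elongin B, a ubiquitin-like protein, stabilises the dimer and takes part in binding some partners. Through the BC-box the dimer joins Elongin A, which stimulates elongation by RNA polymerase II, and it also bridges the substrate receptors of the CUL2 and CUL5 ubiquitin ligases, among them VHL and the SOCS proteins. As both proteins serve in the same complexes, the comparison asks which messenger RNAs depended on which partner was depleted.

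Libraries held 40.3 to 57.2 M counted reads, and 13429 to 14026 genes had at least 10 reads. The share from mitochondrial genes was 2.604% to 4.75%. Between replicates of a group, chi-square per degree of freedom came to 32.5 to 78.0, so the spread between replicates was far above the sampling of reads. Markers of the line were checked against the label: KRT8, KRT18, KRT19 and EPCAM, which mark epithelium, lay between 366 and 26395 normalised counts in every library, and KLK3 was at 0 in all 9.

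The knockdowns differed from each other at most measured genes. Values are on the scale of log2 of the normalised count plus 1, a log2 difference is EloB KD minus EloC KD with its standard error (SE) from limma, n = 3 libraries in each group, and a gene is called at an adjusted p under 0.05 with the replicate number as a block. Of 13764 genes, 8171 were called (59.4% of those tested), 3944 of them higher in EloB KD (28.7%) and 4227 lower (30.7%). The difference was 2-fold or more for 1757 genes (12.8%), of which 961 were higher in EloB KD and 796 lower, 4-fold or more for 247 and 8-fold or more for 41. The EloB KD and EloC KD libraries did not overlap at 7750 genes (56.3%), and 7100 of these were called. Without the replicate block 6343 genes were called, all of them among the 8171. In the same fit EloB KD differed from Control KD at 4996 genes (36.3%) and EloC KD from Control KD at 7841 (57.0%). The mean of Control KD lay nearer EloB KD at 1203 of the 1757 genes (68.5%), nearer EloC KD at 554, and between the knockdowns at 1205. With so many genes called, a share of called genes in a list is read against 28.7% higher and 30.7% lower. In bulk RNA a change in the share of some cells and a change of RNA per cell cannot be told apart.

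**Figure D1:**
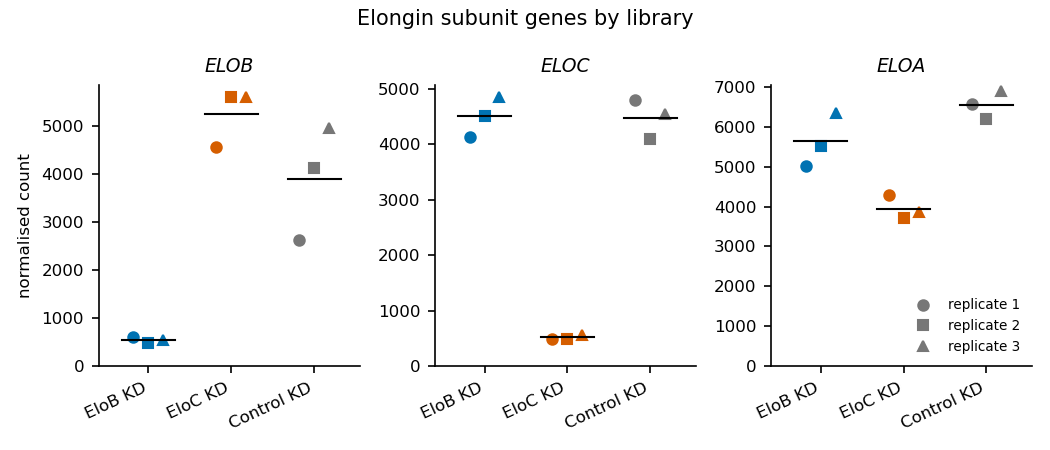
Normalised counts of the Elongin subunit genes (vertical axes, linear and starting at 0) in each library of the 3 groups; point shapes give the replicate number and black lines the group means. ELOB is low in EloB KD only, ELOC in EloC KD only, and ELOA is lower in EloC KD than in EloB KD.

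The targeted genes marked the libraries as labelled. The ELOB gene (chromosome 16, 2771414 to 2777297, GRCh38) was read at 596, 478 and 535 normalised counts with EloB KD, at 4563, 5603 and 5600 with EloC KD and at 2626, 4118 and 4950 with Control KD. Every EloB KD library lay under every EloC KD and Control KD library, and the knockdowns differed by -3.29 ± 0.17 (adjusted p 7.54e-07, limma). ELOC (chromosome 8, 73939169 to 73972287) had 4135, 4512 and 4858 in the EloB KD libraries, 492, 497 and 558 in EloC KD and 4797, 4097 and 4547 in Control KD. The picture was the mirror image, with a log2 difference of 3.12 ± 0.08 (adjusted p 6.05e-08), and the depletions, -2.82 for ELOB and -3.12 for ELOC against Control KD, were of like size. The partner's transcript was not depleted along with the target: ELOC differed from Control KD by 0.01 in EloB KD, and ELOB by 0.47 in EloC KD (adjusted p 0.035, higher). ELOA (chromosome 1, 23743155 to 23762059), the elongation factor subunit, did differ between the knockdowns. Its counts were 5023, 5516 and 6358 in the EloB KD libraries, 4278, 3704 and 3864 in EloC KD and 6583, 6187 and 6901 in Control KD, with a log2 difference of 0.51 ± 0.09 (adjusted p 0.000693). Each EloC KD library was under each EloB KD library, and the EloB KD libraries reached from within the Control KD range to below it.

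The ligase core around the dimer moved little. Beside ELOB, ELOC and ELOA, 12 further members were measured. CUL2 and CUL5, the scaffolds, were not called (-0.12 and 0.17; CUL5 had an adjusted p of 0.0557, and 0.0403 in edgeR). The RING subunits RBX1, which serves CUL2, and RNF7, which serves CUL5, were both lower in EloB KD (-0.34 and -0.52). The neddylation partner DCUN1D1 (-0.37) and the E2 enzyme CDC34 (-0.44) were lower as well.

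The receptors that dock on Elongin B and C by a BC-box split by family. Of 43 measured (of 55 listed), 15 were higher in EloB KD, 16 lower and 12 not called, with a median log2 difference of 0.08 beside -0.01 over all genes. Without EloC KD replicate 2, 10 were lower. Among the SOCS proteins, which switch off cytokine receptors and JAK kinases, 6 of 8 were lower in EloB KD and the other two not called (3 were lower without EloB KD replicate 2). SOCS3, the feedback inhibitor of gp130 cytokines, had 659.7, 498 and 547 in the EloB KD libraries, 1257, 1432 and 1517 in EloC KD and 751, 702 and 965 in Control KD. Control KD lay between the knockdowns, with no overlap (-1.31 ± 0.13, adjusted p 2.05e-05). SOCS5 differed by -0.65 and SOCS1 by -1.22 (adjusted p 0.00901, which became 0.0512 on leaving out EloB KD replicate 2). Among the ankyrin-repeat ASB receptors 7 of 9 measured were higher in EloB KD and 1 lower, with ASB13 at 1.14, ASB8 at 0.97 and ASB9 at 0.78. Of the CUL2 receptors 3 of 13 were higher and 6 lower (the 3 higher lost their calls without the replicate block). KLHDC3, which reads glycine-ended C-terminal degrons, was the furthest apart of these (1542, 1925 and 1996 in EloB KD and 4524, 5569 and 4259 in EloC KD; -1.39 ± 0.10). KLHDC1, a kelch-repeat receptor of CUL5 ligases, went the other way, with 256, 203 and 187 in EloB KD and 53.4, 43.9 and 42.1 in EloC KD (2.18 ± 0.14). SPSB1, the receptor of inducible nitric oxide synthase, was lower in EloB KD (-1.23) and the Rab-like receptor RAB40B higher (1.31).

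Among the genes furthest apart on the side of EloC KD, IL24, a cytokine of the interleukin-10 family (chromosome 1, 206897443 to 206904139), had 23.3, 23.1 and 33.1 in the EloB KD libraries, 609, 1536 and 819.9 in EloC KD and 33.9, 27.2 and 21.9 in Control KD. Its EloC KD libraries stood 33.8-fold above EloB KD, which shared its range with Control KD (-5.08 ± 0.31, adjusted p 1.33e-06). KITLG, the stem cell factor that binds the receptor KIT (chromosome 12, 88492793 to 88580851), was abundant and had 1935, 2642 and 2837 in the EloB KD libraries, 22163, 23682 and 19592 in EloC KD and 3589, 3668 and 3909 in Control KD. Each EloC KD library was far above each of the other 6, and EloB KD was below Control KD (-3.16 ± 0.12, adjusted p 3.53e-07). CLDN1, a claudin of tight junctions, had 104, 227 and 174 in the EloB KD libraries, 1650, 3952 and 1643 in EloC KD and 292, 349 and 356 in Control KD. Here EloB KD was also below Control KD (-1.04, adjusted p 0.00442) while EloC KD was above it (2.73), so the knockdowns lay on opposite sides. TNFAIP6, a secreted hyaluronan-binding protein, showed the same order (68.0, 49.9 and 94.7 in the EloB KD libraries, 769.9, 507 and 719.9 in EloC KD and 181, 139.6 and 172 in Control KD; -3.24 ± 0.15), as did RIPOR2, a regulator of cell polarity and migration (58.7, 19.2 and 50.2 in EloB KD and 525, 259 and 356 in EloC KD; -3.21 ± 0.19). OLFML3, a secreted olfactomedin-like glycoprotein, had 13.98, 85.5 and 47.3 in the EloB KD libraries, 546, 1562 and 580.0 in EloC KD and 17.0, 39.5 and 14.6 in Control KD (-4.32 ± 0.31). In the other genes of this group the EloC KD libraries stood high, above both other groups. LY96, the MD-2 co-receptor of TLR4, had 29.8, 30.7 and 40.7 in EloB KD and 301, 547 and 318 in EloC KD (-3.45) and ABCC9, the sulphonylurea receptor subunit of potassium channels, had 66.2, 145 and 111 in EloB KD and 823, 969 and 892 in EloC KD (-3.12). SUN3, a SUN domain protein of the nuclear envelope, had 0.932, 12.49 and 5.68 in EloB KD and 182, 414 and 187 in EloC KD (-5.44). ACTBL2, a beta-actin-like gene, was -3.68, with the reservation that reads may be shared with other actins. SUN3 and ACTBL2 were so low in EloB KD that a pseudocount of 5 gave -4.58 and -2.89, and SUN3 was at -4.74 without EloB KD replicate 1.

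On the side of EloB KD a muscle pair stood out. MYOD1, the myogenic transcription factor (chromosome 11, 17719568 to 17722131), had 876, 480.2 and 1229 in the EloB KD libraries, 54.4, 26.8 and 92.6 in EloC KD and 113, 95.7 and 111 in Control KD. CHRNA1, the alpha subunit of the muscle acetylcholine receptor (chromosome 2, 174747592 to 174787935), had 163, 92.2 and 321 in the EloB KD libraries, 2.97, 2.14 and 17.9 in EloC KD and 14.1, 7.90 and 14.6 in Control KD. In both genes EloB KD was above Control KD and EloC KD was below it on average, and the knockdowns did not overlap (3.94 ± 0.24 and 4.78 ± 0.38, adjusted p 1.36e-06 and 5.72e-06). Replicate 2 was the lowest and replicate 3 the highest in each knockdown for both genes. The rest of the muscle programme was thin in these cells. Of 37 muscle and synapse genes 19 passed the level filter, 4 were higher in EloB KD and 6 lower (3 lower without EloC KD replicate 1), and MYF5, MYF6 and the troponin gene TNNI2 had no read in any library. The myosin light chain MYL10 was higher than in EloC KD (171, 252 and 195 in the EloB KD libraries, 55.4, 30.0 and 29.5 in EloC KD and 676, 427 and 463 in Control KD; 2.44), with both knockdowns below Control KD. The letters CAGCTG, which MYOD1 and its kin bind, were in 5 of 12 promoters of this list (41.7%) beside 12.7% of all tested genes with a promoter.

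ARNT2, a bHLH-PAS partner of HIF factors, had 731, 661 and 473 in the EloB KD libraries, 43.5, 86.8 and 57.9 in EloC KD and 17.9, 26.3 and 19.5 in Control KD. Both knockdowns were above Control KD and EloB KD was 9.99-fold above EloC KD (3.32 ± 0.22, adjusted p 2.08e-06). EPHB1, an ephrin receptor kinase, had 182, 148 and 98.5 in the EloB KD libraries, 14.8, 15.01 and 8.42 in EloC KD and 9.42, 13.2 and 9.74 in Control KD, so that EloB KD was high and EloC KD at the Control KD level (3.38 ± 0.26). ANGPTL2, a secreted angiopoietin-like protein, had 672, 806 and 539 in the EloB KD libraries, 69.3, 56.8 and 61.0 in EloC KD and 398, 616 and 268 in Control KD, so that EloC KD was low and EloB KD closer to Control KD (3.39 ± 0.20). The same held for PPP1R1B, the phosphatase inhibitor DARPP-32 (379, 151 and 252 in EloB KD and 42.6, 18.2 and 34.7 in EloC KD; 2.98), SLC26A5, the motor protein prestin (316, 192 and 248 in EloB KD and 54.4, 19.3 and 38.9 in EloC KD; 2.80), and ZPLD1, a zona pellucida domain protein (629.9, 313 and 376 in EloB KD and 64.3, 49.3 and 66.3 in EloC KD; 2.80). Control KD lay between the knockdowns for the membrane protein TMEM150C (2.97), for GPLD1, a phospholipase that cuts GPI anchors (2.87), and for SAXO2, a microtubule-binding protein (3.24). PADI3, a peptidylarginine deiminase, had 104, 78.8 and 123 in EloB KD and 11.9, 8.58 and 4.21 in EloC KD (3.55, with 2.96 without EloC KD replicate 3 and 3.04 with a pseudocount of 5). ZMAT1, a matrin-type zinc finger gene, had 168, 96.0 and 101 in EloB KD and 6.93, 2.14 and 10.5 in EloC KD (4.17; 4.81 without EloC KD replicate 3 and 3.48 with a pseudocount of 5). CHRNA1 was at 3.999 with a pseudocount of 5. Every gene tested and named in this paragraph and the one before kept its call in each alternative that tested it.

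NF-kB is a family of dimeric transcription factors that are held in the cytoplasm by inhibitors and freed by a kinase complex, and they switch on chemokines, cytokines and their own inhibitors through a short site, the kappa B site. Promoters of 5 of the genes that differed are shown here because each holds this site in the 160 bases shown, and the levels of these genes follow. The sequences are the RefSeq promoters of GRCh38.p14, 5′ to 3′ on the strand of the gene, ending at base -1 before the start site (BIRC3: base -40), and capitals mark matches to the kappa B consensus on either strand.
IL6 (chr7:22727040-22727199, plus strand): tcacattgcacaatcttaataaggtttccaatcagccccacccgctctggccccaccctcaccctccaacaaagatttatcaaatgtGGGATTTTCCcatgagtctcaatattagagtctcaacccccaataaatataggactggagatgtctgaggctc
TNFAIP3 (chr6:137867099-137867258, plus strand): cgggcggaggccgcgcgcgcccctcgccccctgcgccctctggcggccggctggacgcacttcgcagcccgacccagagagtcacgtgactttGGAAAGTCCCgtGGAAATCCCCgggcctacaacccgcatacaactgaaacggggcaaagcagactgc
CXCL2 (chr4:74099196-74099355, minus strand): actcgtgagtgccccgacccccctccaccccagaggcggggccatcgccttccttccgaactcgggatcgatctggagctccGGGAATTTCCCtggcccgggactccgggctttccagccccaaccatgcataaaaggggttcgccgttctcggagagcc
CXCL6 (chr4:73836518-73836677, plus strand): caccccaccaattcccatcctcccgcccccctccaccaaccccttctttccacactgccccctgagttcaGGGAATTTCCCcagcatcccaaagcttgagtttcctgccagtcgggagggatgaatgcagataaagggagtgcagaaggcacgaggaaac
BIRC3 (chr11:102317285-102317444, plus strand): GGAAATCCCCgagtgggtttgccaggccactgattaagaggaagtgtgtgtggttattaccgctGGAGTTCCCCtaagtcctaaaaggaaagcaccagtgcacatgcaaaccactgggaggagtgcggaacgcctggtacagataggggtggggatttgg
In IL6, CXCL2 and CXCL6 the match lies between bases -90 and -64, and in CXCL2 and CXCL6 overlapping matches on the 2 strands make 1 longer run. TNFAIP3 has a pair of matches between bases -67 and -46. Of 18 genes of the cytokine and NF-kB lists with a promoter in the table and a 2-fold difference between the knockdowns, 8 held a match in the 250 bases before the start. A match was found in 7 of 15 promoters of the cytokine list (46.7%), 8 of 23 of the NF-kB list (34.8%) and 11 of 34 of interferon-stimulated genes (32.4%), beside 657 of the 11030 tested genes with a promoter (5.96%). Among all genes at least 2-fold lower in EloB KD the share was 8.10%, and among those at least 2-fold higher 6.71%. A match is a run of letters and does not show binding.

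Cytokine genes as a list lay far to the side of EloC KD. Of 29 genes 20 were measured, 16 were lower in EloB KD and 1 higher, and the median was -1.39 beside -0.01 over all genes. The list's median against Control KD was 0.01 in EloB KD and 1.16 in EloC KD. IL6, an inflammatory cytokine that acts through gp130, had 19.6, 21.1 and 33.1 in the EloB KD libraries, 166, 219 and 161 in EloC KD and 15.1, 11.4 and 15.8 in Control KD. All EloC KD libraries were above all of the other 6, among which EloB KD was the higher (-2.86 ± 0.26, adjusted p 1.07e-05). TNFSF15, the TNF family ligand TL1A, had 13.04, 9.60 and 14.2 in the EloB KD libraries, 142, 163 and 73.7 in EloC KD and 11.3, 7.03 and 7.30 in Control KD (-3.20 ± 0.32). CXCL2 and CXCL6, neutrophil chemokines, had 51.2, 56.7 and 67.2 in EloB KD and 231, 209 and 215 in EloC KD, and 89.5, 142 and 96.6 in EloB KD and 338, 327 and 276 in EloC KD. Neither overlapped between the knockdowns (-1.89 ± 0.22 and -1.54 ± 0.16). The alarmin IL33 (56.8, 28.8 and 56.8 in EloB KD and 193, 94.3 and 195 in EloC KD; -1.73) and the colony stimulating factors CSF1 (-1.23) and CSF2 (-2.69) were lower in EloB KD too. CXCL16, a transmembrane chemokine, was the exception, with 622, 499 and 522 in the EloB KD libraries, 295, 219 and 298 in EloC KD and 555, 523 and 476 in Control KD and a difference of 1.02 ± 0.12. The 9 members under the level filter included TNF, CCL5 and CXCL12, none of which exceeded 3.16 normalised counts in any library. IL33 and CXCL6 were lower than Control KD in EloB KD (-2.46 and -1.08), whereas IL6 and TNFSF15 were near or above it (0.74 and 0.49), so the cytokines did not share 1 position of Control KD.

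The genes that regulate NF-kB went the same way. Of 27, all measured, 21 were lower in EloB KD and 2 higher, with a median of -0.56. All 9 inhibitors were lower. TNFAIP3, the ubiquitin-editing enzyme A20, had 376, 432 and 397 in the EloB KD libraries, 1623, 2255 and 1706 in EloC KD and 179, 204 and 181 in Control KD. EloB KD lay above Control KD and EloC KD above both (-2.20 ± 0.10, adjusted p 5.35e-07). NFKBIA, which encodes IkB-alpha, had 1879, 2053 and 2072 in the EloB KD libraries, 3646, 4225 and 3633 in EloC KD and 1511, 1698 and 1715 in Control KD (-0.94 ± 0.07), with the same order. BCL3, a nuclear IkB protein, differed by -1.25. For other members the knockdowns lay on opposite sides of Control KD. IKBKG, the NEMO subunit of the IkB kinase, had 219, 222 and 232 in the EloB KD libraries, 697, 718 and 745 in EloC KD and 486, 532 and 597 in Control KD. EloB KD was -1.25 from Control KD and EloC KD 0.42 (-1.68 ± 0.10 between them). TNIP2, a partner of A20, had 977, 983 and 1055 in the EloB KD libraries, 2763, 2907 and 3108 in EloC KD and 1968, 2187 and 2423 in Control KD (-1.54 ± 0.07). The subunits were closer together: NFKB2 was at -0.56, REL at -0.38, and RELA at -0.26 (adjusted p 0.00886, which became 0.0909 with quantile scaling and 0.0574 without EloB KD replicate 2). BIRC3, the ubiquitin ligase cIAP2, was at -1.59 ± 0.28, RIPK2 at -1.02 and TRAF2 at -0.58. TRAF3, which restrains the non-canonical arm, was higher in EloB KD (0.54).

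**Figure D2:**
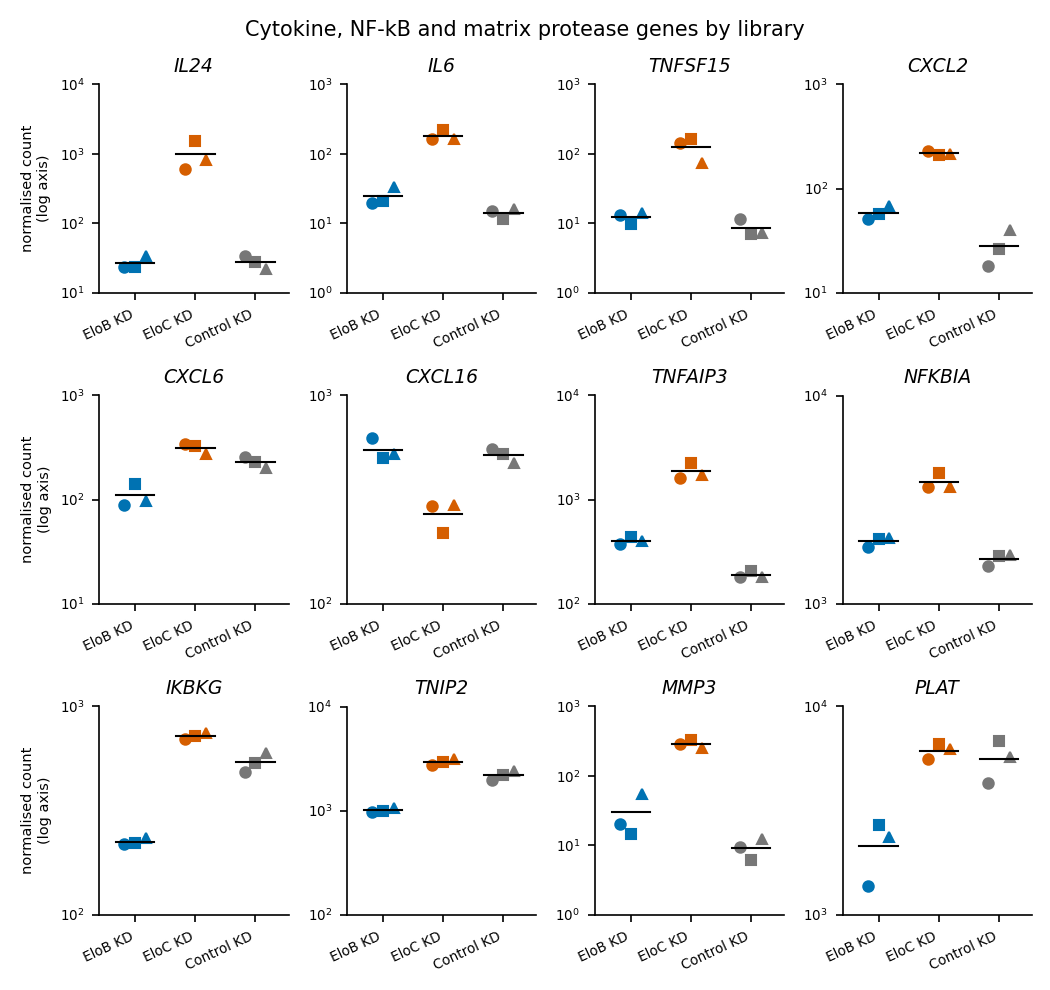
Normalised counts (vertical log axes) of 12 cytokine, NF-kB and matrix protease genes in each library; circles, squares and triangles are replicates 1, 2 and 3, and black lines are group means. The EloC KD mean is highest in every panel but CXCL16, and EloB KD lies below Control KD for CXCL6, IKBKG, TNIP2 and PLAT.

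Transcripts of extracellular proteolysis genes followed the same direction, and proteolysis itself was not measured. Of 30 measured matrix proteases and inhibitors (of 36), 20 were lower in EloB KD, with a median of -0.77. None was higher in limma, where 1 had a positive difference at an unadjusted p under 0.05 (edgeR called 1 and DESeq2 0). The gelatinases MMP2 (0.32, adjusted p 0.226) and MMP9 (0.50, adjusted p 0.431) were not called. MMP2 was at 0.57 (adjusted p 0.0363) without EloB KD replicate 1, and MMP9 at 1.36 (adjusted p 0.0117) without EloC KD replicate 2. MMP3, stromelysin 1, had 20.5, 14.4 and 54.9 in the EloB KD libraries, 286, 326 and 252 in EloC KD and 9.42, 6.15 and 12.2 in Control KD (-3.44 ± 0.36). EloB KD was above Control KD here (1.41, adjusted p 0.0116) and EloC KD above both. MMP1, interstitial collagenase, had 698, 517 and 797 in the EloB KD libraries, 3439, 2272 and 2921 in EloC KD and 1602, 816 and 1511 in Control KD (-2.10 ± 0.12), with Control KD between the knockdowns. MMP10, stromelysin 2, had 251, 235 and 226 in EloB KD and 1080, 999 and 838 in EloC KD (-2.02 ± 0.11). MMP7, matrilysin, had 3.73, 4.80 and 11.4 in EloB KD and 38.6, 92.2 and 43.2 in EloC KD (-2.97, and -2.40 with a pseudocount of 5). Of the plasminogen system the activators PLAU and PLAT and the receptor PLAUR were at -0.85, -1.57 and -0.78, and the inhibitor SERPINB2 at -2.13. Of the 6 inhibitors measured in this list 5 were lower in EloB KD, so genes of proteases and of their inhibitors shared the direction. The sheddase ADAM17 was lower in EloB KD as well (-0.93). The letters TGANTCA, which AP-1 factors bind, were in 5 of 17 promoters of this list (29.4%) beside 4.16% of all tested genes with a promoter, and in 7.93% of genes at least 2-fold lower in EloB KD. Shares in the other lists ran from 0% (HOX genes among them) to 55.6% (markers of other cell types, 9 promoters).

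AP-1 and immediate early genes, which answer to MAP kinases within minutes in many cells, were mostly lower in EloB KD: 20 of 35 measured were lower and 4 higher, with a median of -0.56. ATF3, a stress-induced AP-1 factor, had 458, 401 and 444 in the EloB KD libraries, 1692, 2621 and 1800 in EloC KD and 447, 365 and 360.4 in Control KD (-2.20 ± 0.16). FOSL1 and FOSL2, the Fra proteins, were at -0.69 and -1.07 and the nuclear receptor NR4A1 at -1.63. The MAP kinase phosphatases DUSP1 and DUSP5 were at -1.27 and -1.84, with 1925, 1630 and 2045 in EloB KD and 6605, 7213 and 6127 in EloC KD for DUSP5. The letters TGACGTCA, which CREB and ATF factors bind, were in 4 of 27 promoters of the list (14.8%) beside 2.76% of all tested genes with a promoter. Feedback inhibitors of ERK did not all share the direction, since SPRED2 was lower in EloB KD (-1.02) and SPRY4 higher, with 10826, 13077 and 12279 in the EloB KD libraries, 4684, 4881 and 4433 in EloC KD and 9306, 9701 and 8009 in Control KD (1.37 ± 0.08).

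Receptors and ligands of growth factors were set apart member by member. EGFR, the receptor of epidermal growth factor (chromosome 7, 55019021 to 55211628), had 2984, 3381 and 3366 in the EloB KD libraries, 12675, 13360 and 9590 in EloC KD and 5255, 5341 and 5935 in Control KD. EloB KD was below Control KD (-0.76) and EloC KD above it (1.09), and they differed by -1.86 ± 0.12 (adjusted p 1.56e-06). Its ligands amphiregulin and epiregulin, neighbours on chromosome 4, differed in opposite directions. AREG had 344, 253 and 329 in the EloB KD libraries, 1128, 1130 and 1204 in EloC KD and 1114, 611 and 999.6 in Control KD (-1.91 ± 0.14), and EREG had 205, 171 and 146 in the EloB KD libraries, 73.2, 67.5 and 75.8 in EloC KD and 88.6, 78.2 and 87.7 in Control KD (1.25 ± 0.16). Of 34 measured TGF-beta and activin genes 20 were lower in EloB KD and 8 higher. TGFBR1, the type I receptor, had 4094, 3907 and 3382 in the EloB KD libraries, 1111, 1110 and 1146 in EloC KD and 2687, 2524 and 2535 in Control KD (1.75 ± 0.08), and TGFBR3, betaglycan, was at -1.16. GDF15, a stress-induced ligand, had 970.0, 741 and 1191 in EloB KD and 3549, 3835 and 3554 in EloC KD (-1.94 ± 0.13), and BMP2 131, 116 and 122 in EloB KD and 462, 635 and 417 in EloC KD (-2.003 ± 0.16). The activin antagonists FST and FSTL3 were lower in EloB KD (-1.13 and -1.50), as was the signal transducer SMAD3 (-0.99).

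YAP1, a coactivator held in check by the Hippo kinases, was lower in EloB KD (8612, 11007 and 8527 in EloB KD and 16088, 19241 and 14184 in EloC KD; -0.81 ± 0.08), and 14 of the 17 target genes of the list were lower and 3 higher. CCN1, a matricellular target, had 2028, 2914 and 2852 in the EloB KD libraries, 6546, 15558 and 9252 in EloC KD and 1580, 2110 and 2459 in Control KD (-1.93 ± 0.16), and GADD45A was at -1.45 and DLC1 at -0.81. The letters CATTCC, which TEAD factors bind, were in 6 of 29 promoters of this list (20.7%) beside 9.61% of all tested genes with a promoter. Shares in the other lists ran from 0% (NRF2 targets among them) to 37.5% (HOX genes), so the share was not particular to this list. Of the upstream members the angiomotin-like AMOTL2 (-1.06) and WWC1 (-0.64) were lower as well.

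Adhesion genes showed an exchange of cadherins. CDH1, E-cadherin (chromosome 16, 68737225 to 68835548), had 651, 285 and 349 in the EloB KD libraries, 176, 116 and 81.0 in EloC KD and 979, 667 and 449 in Control KD. CDH2, N-cadherin (chromosome 18, 27950966 to 28177446), had 2590, 3884 and 3511 in the EloB KD libraries, 9955, 11562 and 8613 in EloC KD and 3155, 3437 and 3123 in Control KD. Against Control KD both knockdowns had less CDH1 (-0.72 in EloB KD and -2.48 in EloC KD), and CDH2 was higher in EloC KD (1.62; 0.02 in EloB KD). EloB KD was thus the higher for CDH1 (1.76 ± 0.16, adjusted p 1.31e-05) and the lower for CDH2 (-1.60 ± 0.11, adjusted p 2.79e-06), and no library overlapped between the knockdowns in either. ESRP1, a splicing regulator of epithelial cells, was higher in EloB KD (776, 664 and 669 in the EloB KD libraries, 349, 278 and 334 in EloC KD and 626, 597 and 468 in Control KD; 1.13 ± 0.12). SNAI2 and ZEB1, repressors of CDH1, were lower (-0.59 and -0.31). In the whole list of tight junction, cadherin and catenin genes with the factors of epithelial-mesenchymal transition, 23 of 41 measured were lower in EloB KD and 7 higher (median -0.32; 19 and 3 without the replicate block), with CLDN11 at -1.42, the plakophilin PKP2 at -1.06 and the desmoglein DSG2 at -0.98.

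Integrins, laminins and collagens moved both ways, 12 higher in EloB KD and 20 lower of 45. ITGA5, the fibronectin receptor subunit, had 6011, 6026 and 5724 in the EloB KD libraries, 22201, 26952 and 18616 in EloC KD and 7949, 9141 and 6618 in Control KD (-1.92 ± 0.09), and THBS1, thrombospondin 1, 1379, 2707 and 1806 in the EloB KD libraries, 6758, 10442 and 5915 in EloC KD and 1466, 2624 and 1980 in Control KD (-1.98 ± 0.11). COL17A1, a hemidesmosomal collagen, was at -1.26. COL6A3 was the reverse, with 5693, 9949 and 6763 in the EloB KD libraries, 2436, 2702 and 1857 in EloC KD and 3968, 7051 and 4270 in Control KD (1.66 ± 0.13), and so was COL3A1 (229, 197 and 149 in EloB KD and 59.4, 49.3 and 66.3 in EloC KD; 1.69 ± 0.20). Markers of fibroblasts differed as well. Of 8 listed, 6 were measured, 3 were lower in EloB KD, 1 (COL3A1) was higher and 2 were not called, and their summed level was 906 to 1425 normalised counts in EloB KD, 2966 to 3682 in EloC KD and 945 to 1310 in Control KD. COL1A1 (836, 493 and 615 in EloB KD and 2388, 2464 and 1919 in EloC KD; -1.82) and PDGFRA (243, 107 and 266 in EloB KD and 1073, 466 and 809 in EloC KD; -1.95) carried most of the difference, DCN reached at most 17.2 and THY1 at most 6.43 in any library, and their part in the matrix results was not tested. Of 8 haematopoietic markers 4 were measured, with a summed level of 2271 to 2885 in EloB KD, 2479 to 3126 in EloC KD and 2405 to 2867 in Control KD. Of these 1, CD14, was called (1.01), and it lost the call without the replicate block (adjusted p 0.115, limma) and in DESeq2 (adjusted p 0.123). PTPRC reached at most 13.4 and CD3E at most 3.16 in any library. Of 6 neuroendocrine markers 3 were measured and all 3 were higher in EloB KD: SYP (0.53), ENO2 (0.46) and NCAM1, which had 13.04, 26.9 and 25.6 in the EloB KD libraries, 1.98, 3.22 and 2.11 in EloC KD and 1.88, 5.27 and 12.2 in Control KD (2.69). NCAM1 was at 1.81 with a pseudocount of 5. SYP lost its call with quantile scaling (adjusted p 0.0526, limma) and without EloB KD replicate 2 or EloC KD replicate 1. The summed level of the neuroendocrine markers was 10086 to 12623 in EloB KD, 6949 to 9278 in EloC KD and 9456 to 15394 in Control KD. Of 4 measured endothelial markers 1 was higher and 1 lower.

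Keratins and S100 genes held some of the largest single values. KRT81, a hair keratin, had 2732, 9905 and 6473 in the EloB KD libraries, 30364, 70984 and 46486 in EloC KD and 7180, 37857 and 21391 in Control KD. Levels differed with the replicate number in every group, lowest in replicate 1 and highest in replicate 2, and within each number EloC KD was above Control KD and EloB KD below it, which gave -3.05 ± 0.17 between the knockdowns (adjusted p 1.01e-06). KRT80 was lower in EloB KD (-1.37), and KRT18, a simple-epithelium keratin, higher (5867, 5780 and 6323 in EloB KD and 2547, 2704 and 3639 in EloC KD; 1.03 ± 0.10). Of 12 measured S100 calcium-binding proteins 8 were lower and 3 higher, with S100A4 at -1.62 and S100A3 at -1.42. Of transcription factors of prostate epithelium, the basal factor TP63 was lower in EloB KD (64.3, 74.9 and 69.1 in EloB KD and 142, 372 and 257 in EloC KD; -1.77), and FOXA1 was higher (0.57; adjusted p 0.063 without the replicate block, with overlapping libraries).

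Lysosomes break down macromolecules with acid hydrolases, and a proton pump, the V-ATPase, keeps them acid. Of 58 measured lysosomal genes 36 were lower in EloB KD and 9 higher, with a median of -0.37. Against Control KD the list's median was 0.15 in EloB KD and 0.51 in EloC KD. ATP6V1B2, a subunit of the pump, had 1451, 1566 and 1694 in the EloB KD libraries, 6009, 7650 and 5864 in EloC KD and 4104, 4200 and 3819 in Control KD (-2.04 ± 0.10, adjusted p 5.35e-07). EloB KD was below Control KD and EloC KD above it. Of 14 pump subunits 8 were lower in EloB KD and 6 not called. Of 12 membrane proteins 10 were lower and 1 higher, with LAMP1 at -0.97, CD63 at -0.82 and the cholesterol transporter NPC1 at -0.73. SMPD1, acid sphingomyelinase, was at -1.64. ARSB and FUCA1 were the hydrolases higher in EloB KD by 2-fold or more (1.15 and 1.12). TFE3, one of the factors that drive lysosomal genes through the letters CACGTG, was at -1.21 ± 0.08, and TFEB at -0.19 (adjusted p 0.419). Those letters were in 11 of 40 promoters of the list (27.5%) beside 8.68% of all tested genes with a promoter. Shares in the other lists ran from 0% (cytokine genes among them) to 31.25% (HOX genes). Autophagy genes were less one-sided, 6 higher and 14 lower of 40 (8 lower without EloB KD replicate 2). SQSTM1, the cargo receptor p62, had 8708, 10239 and 10094 in the EloB KD libraries, 22122, 31573 and 23469 in EloC KD and 7300, 10402 and 9164 in Control KD (-1.40 ± 0.08), and ATG12 was at -1.48, whereas the kinase ULK2 and its partner RB1CC1 were at 1.48 and 1.31.

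NRF2 is a factor of the antioxidant response whose targets carry out quinone reduction, heme breakdown and iron storage. Of 32 measured targets and regulators 20 were lower in EloB KD and 2 higher, with a median of -0.44, and of the 10 enzymes of quinones, heme and iron 8 were lower and 2 not called. HMOX1, heme oxygenase 1, had 854, 861 and 1049 in the EloB KD libraries, 3191, 3890 and 3528 in EloC KD and 857, 872 and 857 in Control KD (-1.94 ± 0.10), and FTH1, the ferritin heavy chain, 6567, 8103 and 7704 in the EloB KD libraries, 18897, 31067 and 25499 in EloC KD and 5027, 7535 and 9387 in Control KD (-1.73 ± 0.12). EloB KD overlapped Control KD in both and EloC KD did not. AKR1C1 and AKR1C3, aldo-keto reductases, were at -2.02 and -1.60. They share near-identical copies, so reads may be split between them. TXNRD1, thioredoxin reductase, was at -0.85 and NFE2L2, which encodes NRF2 itself, at -0.74. The letters TGACNNNGC, the core of the element that NRF2 binds, were in 5 of 23 promoters of the list (21.7%) beside 12.0% of all tested genes with a promoter. Shares in the other lists ran from 2.86% (sterol and fatty acid genes) to 27.3% (BC-box receptors), so the share was not particular to NRF2 targets. In EloC KD and EloB KD the NRF2 list's medians against Control KD were 0.27 and -0.01.

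Genes that build ribosomes were mostly lower in EloB KD, and most genes of the ribosome itself were not called. Of 44 ribosome biogenesis genes 30 were lower in EloB KD and 2 higher, with a median of -0.34. NOP10, a box H/ACA protein, had 3730, 4115 and 4805 in the EloB KD libraries, 9877, 11103 and 10100 in EloC KD and 6635, 5610 and 5714 in Control KD (-1.30 ± 0.11). UTP18 (-0.90), the helicase DDX21 (-0.72) and POLR1E, a subunit of RNA polymerase I (-0.97), were further members. Of 82 measured ribosomal protein genes 20 were higher in EloB KD, 9 lower and 53 not called, with a median of 0.07. The share higher was under the 28.7% of all genes. Without EloC KD replicate 1, 14 were higher, and with quantile scaling 40. RPL4 was far outside its family, with 27726, 25852 and 28455 in the EloB KD libraries, 6643, 5467 and 7910 in EloC KD and 33124, 31573 and 29155 in Control KD (2.05 ± 0.11, adjusted p 7.54e-07). EloB KD was near Control KD (-0.19, adjusted p 0.175) and EloC KD 4.73-fold below it. RPL3 (0.86), RPL19 (0.79) and RPL10A (0.71) followed, and RPS26 (-0.59) and RPS27L (-0.60) were lower in EloB KD. Ribosomal protein genes have many processed pseudogenes, so reads may be shared.

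Of 65 nuclear genes of the respiratory chain 24 were higher in EloB KD and 5 lower (16 higher without the replicate block, and 14 without EloC KD replicate 1), among them ATP5F1B, the catalytic subunit of ATP synthase (74226, 80660 and 83702 in EloB KD and 41988, 36894 and 50424 in EloC KD; 0.89 ± 0.10), and NDUFA5 of complex I (0.71). With quantile scaling 37 of all 78 respiratory genes were higher. Of 13 mitochondrially encoded genes 7 were lower and 6 not called, and without the replicate block, or without EloC KD replicate 2, 3 were lower. The furthest apart were MT-ND6 at -0.80, MT-ND3 at -0.66 and MT-ND5 at -0.57. Proteasome and chaperone genes were lower in EloB KD at 21 of 50 and higher at 1. Without EloB KD replicate 1, 7 were higher and 19 lower, and with quantile scaling 9 were higher and 17 lower. Without EloC KD replicate 2, 16 were lower. PSMB5, the chymotrypsin-like proteasome subunit, had 3901, 4372 and 5520 in the EloB KD libraries, 16937, 18014 and 17872 in EloC KD and 18909, 18428 and 17872 in Control KD (-1.95 ± 0.10), the most distant member of that list. Here EloC KD was at the Control KD level (-0.06, adjusted p 0.608) and EloB KD 4.04-fold below it. The heat shock factor HSF1 was at -0.82. Of the stress genes under ATF4 and the unfolded protein response 21 of 43 were lower and 7 higher. NUPR1 (-1.46), SESN2 (-1.05) and SLC3A2 (-1.09) were lower, while ASNS (0.84) and PHGDH (0.80), which make asparagine and serine, were higher.

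Among genes of cell death, 19 of 46 were lower in EloB KD and 6 higher. BMF, a BH3-only protein that binds BCL2 and its kin, had 534, 343 and 259 in the EloB KD libraries, 2301, 2609 and 1328 in EloC KD and 469, 391 and 253 in Control KD (-2.46 ± 0.14), with EloB KD and Control KD overlapping. HRK had 29.8, 12.49 and 24.6 in EloB KD and 109, 64.3 and 89.5 in EloC KD (-1.98 ± 0.25), and PMAIP1, NOXA, 1755, 2502 and 2089 in EloB KD and 4991, 6953 and 5316 in EloC KD (-1.44 ± 0.11). Of 8 BH3-only genes 5 were lower and 1 higher, and EloC KD was the higher group in those named. Of 10 death receptor genes 6 were lower and 2 higher, both by 2-fold or more. TNFRSF1A (-0.89), TNFRSF10A (-0.67) and TNFRSF12A (-1.08) were lower in EloB KD. BIRC5, survivin, was higher (7970, 15187 and 16236 in the EloB KD libraries, 5122, 4216 and 7420 in EloC KD and 11575, 14778 and 17836 in Control KD; 1.21 ± 0.17). CDKN1A, the cyclin-dependent kinase inhibitor p21, was at -0.93, and RRM2B, a ribonucleotide reductase subunit, at 0.91.

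Calls were few among mitotic genes, and their number depended on single libraries. Of 41 genes 4 were higher in EloB KD, 1 lower and 36 not called, the smallest called share among the 32 lists. EloB KD replicate 1 stood below the other EloB KD libraries over this list. Without it 17 were higher and 1 lower, without EloC KD replicate 1 12 were higher and 1 lower, and without EloB KD replicate 2 3 were higher and 7 lower. With all libraries the called genes were MKI67, the Ki-67 antigen (0.83), the checkpoint gene MAD2L1 (0.64), BIRC5, CDK1 (0.41) and CDC25B (3012, 3484 and 4095 in EloB KD and 9399, 8537 and 8810 in EloC KD; -1.35 ± 0.09). The knockdowns overlapped at MAD2L1 and CDK1, and CDK1 lost its call in 9 of 20 alternatives, with an adjusted p of 0.14 without the replicate block and 0.278 without EloB KD replicate 2. At the start of the cycle the cyclins stood opposite. CCND1, cyclin D1, had 16919, 16336 and 16776 in the EloB KD libraries, 42213, 42353 and 38307 in EloC KD and 27753, 25646 and 25609 in Control KD (-1.29 ± 0.07), and CCNE1, cyclin E1, 429, 417 and 409 in the EloB KD libraries, 132, 121 and 134 in EloC KD and 290.2, 339 and 329 in Control KD (1.69 ± 0.12). Of 49 measured genes of the start of the cycle and of replication 12 were higher in EloB KD, 7 lower and 30 not called. Without the replicate block 9 were higher, and without EloB KD replicate 1, 20. Among them CDK4 was lower (-0.76), and the replication genes MCM3 (0.69), GINS4 (1.09) and LIG1 (0.67) were higher in EloB KD.

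Oxygen sensing is the best-known task of an Elongin ligase, since VHL targets the HIF proteins. HIF1A was lower in EloB KD (15283, 13676 and 15115 in EloB KD and 29068, 22369 and 25006 in EloC KD; -0.79 ± 0.08). Of 17 HIF targets listed 5 were higher, 2 lower and 10 not called, and of 18 glycolytic genes measured 7 were higher and 2 lower (4 higher without EloC KD replicate 2). MXI1 (1.05), PDK1 (0.57) and PFKL (1.04) were among the higher and the hexokinase HK1 was lower (-0.85). Of 36 measured elongation factors 8 were higher and 13 lower. PAF1, of the polymerase-associated complex, was higher (0.99), and RTF1 (-0.62), MLLT3 (-0.80) and CCNK (-0.64) were lower. Of Polycomb genes CBX6 had 7254, 7515 and 6982 in the EloB KD libraries, 1997, 1769 and 2363 in EloC KD and 5644, 6774 and 6986 in Control KD (1.84 ± 0.10), whereas CBX2 (-1.29) and BMI1 (-1.22) were lower in EloB KD. Of the HOX genes, which Polycomb silences in many tissues, HOXA2 (-1.82) and HOXA3 (-1.54) were lower and HOXA10 (1.20) and HOXA13 (0.89) higher. In all 9 of 30 measured were higher and 7 lower (5 and 4 without the replicate block). Sterol and fatty acid genes counted 14 higher and 9 lower of 43 (9 higher without the replicate block), with TM7SF2, a sterol reductase, at 1.18. Interferon-stimulated genes counted 7 higher and 8 lower of 45 (5 lower without EloB KD replicate 2), with TLR3 at -1.19 and the proteasome subunit PSMB9 at 0.92.

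**Figure D3:**
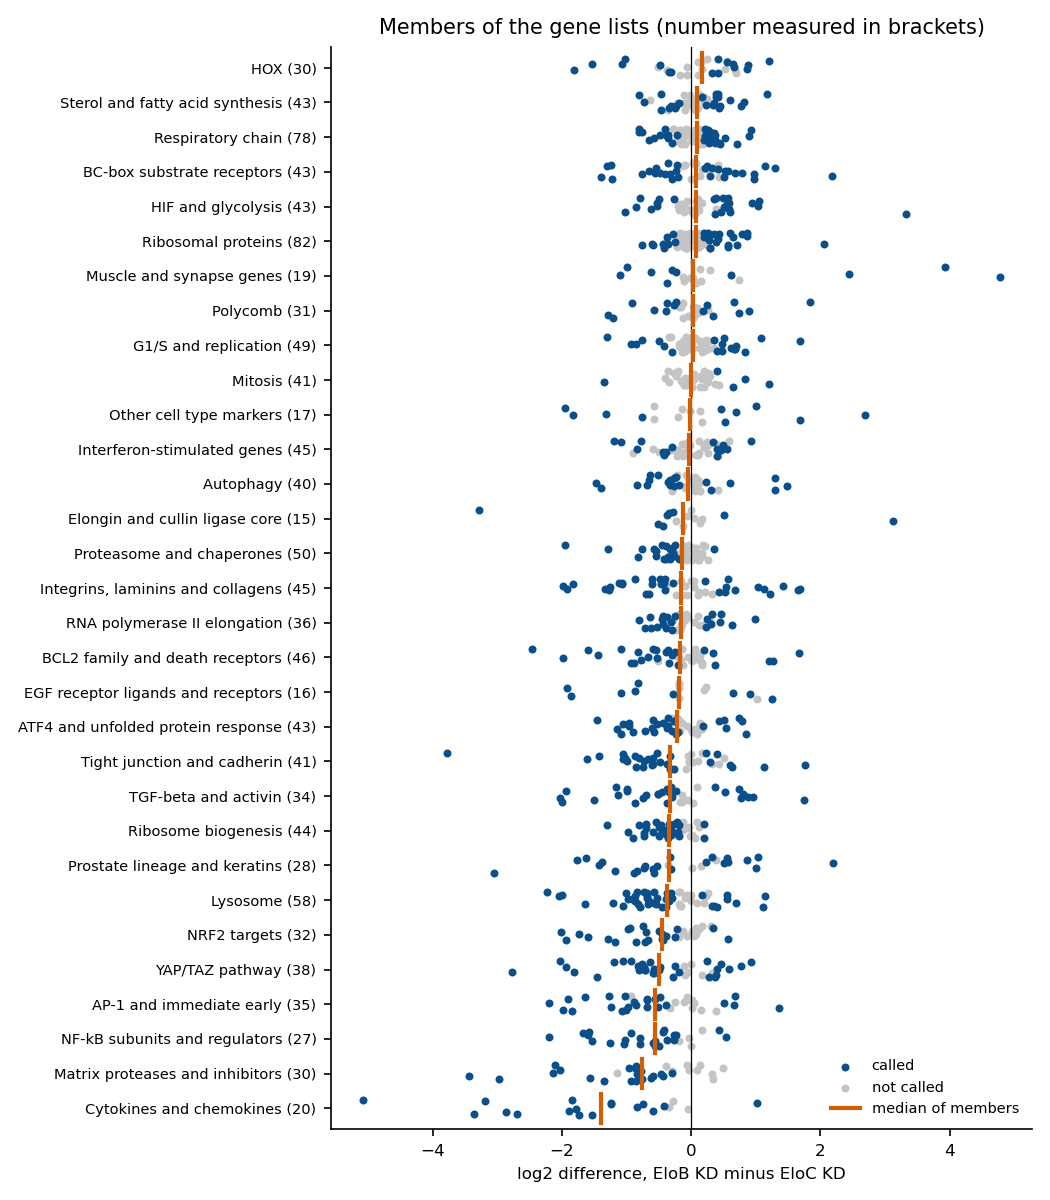
Log2 difference EloB KD minus EloC KD (horizontal) of the measured members of 31 gene lists, ordered by their median (orange bars); dark points were called and grey points not. The cytokine list has the lowest median at -1.39 and the HOX list the highest at 0.16, and most lists hold called members on both sides of 0.

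Zinc finger genes, a family chosen after the medians by chromosome were seen, shifted together. Genes with a ZNF symbol encode mostly C2H2 zinc finger proteins, many with a KRAB domain that represses transcription, and they stand in clusters on chromosome 19. Of the 227 measured there, 151 were higher in EloB KD (66.5%, beside 28.7% of all genes), 22 lower and 54 not called. Their median was 0.52, and in pairs 1, 2 and 3 it was 0.48, 0.60 and 0.44. The median was 0.09 in EloB KD and -0.46 in EloC KD against Control KD. The 227 measured ZNF genes on other chromosomes had a median of 0.11, with 82 higher and 47 lower, and the 782 other genes of chromosome 19 had -0.03, with 195 higher and 218 lower. Genes at low levels had higher values in general, with a median of 0.22 in the lowest and -0.12 in the highest of 5 equal groups by level. In the lowest 4 of these groups the ZNF genes of chromosome 19 had medians of 0.90, 0.52, 0.45 and 0.23, beside 0.20, 0.08, -0.04 and -0.09 of the other genes, and the highest group held 2 of them. The median was 0.47 to 0.55 over the alternatives. The 3 genes with the smallest adjusted p, also chosen after their values were seen, were ZNF808 (766, 674 and 673 in the EloB KD libraries, 251, 205 and 239 in EloC KD and 759, 665 and 706 in Control KD; 1.60 ± 0.09), ZNF211 (1647, 1851 and 1719 in the EloB KD libraries, 756, 692 and 648 in EloC KD and 1161, 1231 and 1138 in Control KD; 1.31 ± 0.09) and ZNF615 (2087, 2274 and 1956 in the EloB KD libraries, 993, 1067 and 959.9 in EloC KD and 1606, 1609 and 1372 in Control KD; 1.06 ± 0.07). For ZNF808 the EloB KD libraries lay close to Control KD and EloC KD was 3.06-fold below Control KD. For ZNF211 and ZNF615 Control KD lay between the knockdowns. The family's members resemble each other in sequence, so some reads may be shared between them.

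**Figure D4:**
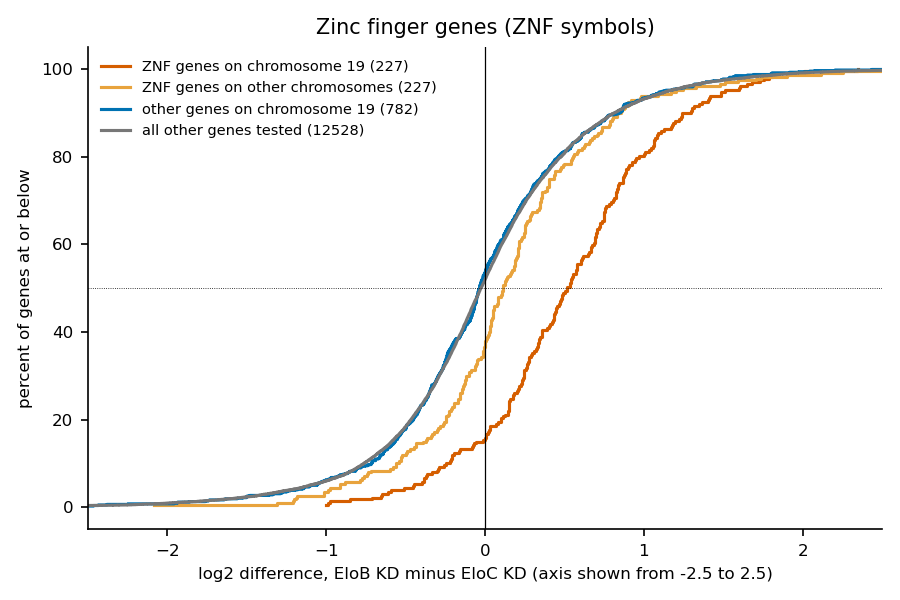
Cumulative percent of genes (vertical) at or below a log2 difference EloB KD minus EloC KD (horizontal) for ZNF genes on chromosome 19, ZNF genes elsewhere, the other genes of chromosome 19 and all other genes tested, with numbers of genes in brackets. The curve of the 227 ZNF genes on chromosome 19 crosses 50% at 0.52, and that of the 782 other genes of the chromosome at -0.03.

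By gene length the comparison was nearly flat. In the longest of 5 equal groups by genomic span (103761 bases or more) 36.7% of genes were lower and 27.8% higher in EloB KD, and the shortest group had 29.4% and 25.1%. Medians in the groups lay between -0.06 and 0.02. By exon length the medians were -0.03 to 0.01.

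Last, some genes answered to both knockdowns alike. Of the 162 genes called at 2-fold or more in the same direction by both against Control KD, which share the control libraries, the 10 with the smallest difference between the knockdowns were B3GNT7, FADS1, HSPG2, SPNS2, MYLK, PLAC1, DMTN, FAM20A, KPNA7 and TSPAN31. FADS1, a fatty acid desaturase, had 6659, 5812 and 7266 in the EloB KD libraries, 7449, 5213 and 7388 in EloC KD and 19720, 13971 and 14634 in Control KD. Both knockdowns were under Control KD, and they differed by -0.01 ± 0.10 from each other. HSPG2, the basement membrane proteoglycan perlecan, had 2700, 1941 and 1655 in the EloB KD libraries, 2302, 2179 and 1669 in EloC KD and 6628, 10449 and 9543 in Control KD (0.02 ± 0.20). MYLK, myosin light chain kinase, had 2797, 3001 and 2669 in the EloB KD libraries, 2568, 3443 and 2405 in EloC KD and 1175, 1488 and 1214 in Control KD (0.03 ± 0.08), and FAM20A, a pseudokinase of the secretory pathway, 87.6, 35.5 and 69.1 in the EloB KD libraries, 96.0, 27.9 and 74.7 in EloC KD and 936, 411 and 499 in Control KD (0.03 ± 0.20). The sphingolipid transporter SPNS2 had 83.9, 56.7 and 136 in the EloB KD libraries, 78.2, 79.3 and 99.99 in EloC KD and 29.2, 23.7 and 39.0 in Control KD (0.02 ± 0.21). These 10 genes were picked for their small difference, so no test is given for it.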

How the data were processed

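RNA was sequenced from 9 libraries of PC3 cells in 3 groups of 3 (Control KD, EloB KD and EloC KD) with a stranded mRNA kit, per the labels' protocols. The submitters' processing notes name the build hg38 and the tools featureCounts and DESeq2; versions are not given in the sources used here. The signal the authors deposited is a normalised read count per gene and library. Dividing by the value of 1 read (0.878 to 1.22) gave whole reads for 100% of values within 0.05 reads.

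Log2 of the normalised count plus 1 was fitted for 13764 genes with limma 3.58.1 (R 4.3.3) with an intensity trend, over all 9 libraries, with groups and the replicate number as a block, with 2-sided p-values adjusted by the Benjamini-Hochberg method across all of them and called under 0.05. The rule for this comparison pairs libraries by number. Deviations from the group means of same-number EloB KD and EloC KD libraries correlated at 0.274 to 0.566, and those of other pairs at -0.439 to 0.0703. With 3 against 3 taken as unpaired no exact permutation p can go below 0.1, and swaps within the 3 pairs have a higher floor. The fit was also run on simulated data in which far fewer genes changed than were called here, so that run does not vouch for the calls. Alternatives were no block, the 6 libraries only, TMM and quantile scaling, pseudocounts of 0.5 and 5, filters of 1 and 50, an adjusted p under 0.01, leaving out each library, and edgeR 4.0.16 and DESeq2 1.42.0 on the recovered reads.

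The authors also deposited a DESeq2 table of this comparison with a log2 fold change and an adjusted p-value per gene. There, 6801 genes pass 0.05 in the authors' deposited table, of which 6656 are among the 8171 called here and 0 of them in the opposite direction.

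Named genes are ELOB, ELOC and ELOA, the 15 largest differences on each side (mean of at least 50, groups not overlapping, all pairs in 1 direction), per list the 6 and per role the 3 members with the smallest adjusted p, and the 10 genes closest between the knockdowns. The members, 32 lists and this rule were chosen with earlier results of these data known. Promoters are the first RefSeq entry (GRCh38.p14) of a symbol, matched for 11030 genes, over 250 bases before the start. The kappa B consensus and the 6 motifs spelled out in the text were searched on both strands, where matches of different motifs may overlap. Gene positions are from GENCODE v29 or, where it lacks the symbol, RefSeq. Some genes that this rule names are not reported here.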

Additional observations from a re-analysis of the deposited data

How the results depend on the processing

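The counts over all genes moved by less than 1.5 times, whereas those of some lists, large ones among them, moved more. For many of these the changed counts are given beside the list, but not for all. The count over all genes was 8171 and ranged from 6325 (adjusted p under 0.01) to 8440 (filter at a mean of 1). Without the replicate block 6343 genes were called, and leaving out 1 library gave 6818 to 8400. edgeR called 8168 and DESeq2 7896. The count at 2-fold or more was 1757, with 1277 to 2115 over the alternatives and 1677 without the replicate block. Quantile scaling turned the balance of directions, from 3944 higher and 4227 lower in EloB KD to 4181 higher and 3901 lower, and the median of all genes moved from -0.01 to 0.01. Of the 383 named genes 347 were called. Of these, 38 lost the call in at least 1 alternative, among them 31 on leaving out a library and 26 without the replicate block, and 0 of the 383 changed direction. Recomputing the medians of the 32 lists under the alternatives gave 608 values. Of these, 33 moved by more than the standard deviation of the list's median over the 3 same-number pairs. Low counts limit SUN3, CHRNA1, ZMAT1, ACTBL2, NCAM1, MMP7 and PADI3, whose size depended on the pseudocount.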
